A study of Mus musculus with 16 samples.

Results

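The MHC class I antigen presentation genes described here are H2-D1, H2-K1, H2-Q10, B2m, Tap1, Tap2, Tapbp, Psmb8, Psmb9 and Psmb10. They were found by name in the array files, where 21 array features (probes) carried 1 of these 10 gene names, out of 41174 features and 27745 names in all. MHC class I molecules show the cell's own peptides to CD8+ T cells. Proteins are cut by the proteasome, the peptides are pumped into the endoplasmic reticulum by the transporter TAP, and there they are loaded onto a heavy chain that is held by β2-microglobulin. Interferons, above all interferon-γ, are known to raise most genes of this pathway and to exchange the catalytic subunits of the proteasome for those of the immunoproteasome. Skeletal muscle fibres are known for low class I levels at rest and for high levels in inflamed muscle.

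Gene expression was measured in gastrocnemius, a calf muscle, of male C57BL/6N mice on 16 two-color arrays, 1 for each mouse. From the age of 3 months, 8 mice (cHF+ROSI) ate a high-fat diet of about 35% lipid by weight with the PPARγ agonist rosiglitazone at 10 mg per kg diet for 8 weeks. In the diet of the other 8 mice (cHF+F+ROSI) an n-3 LC-PUFA concentrate rich in DHA and EPA also took the place of 15% of the lipids. All mice were fasted for 10 hours and then re-fed Chow overnight before killing, and both groups had rosiglitazone, so no array here shows the drug against its absence.

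Each mouse was labelled with Cy5 and set against a common Cy3 pool of muscle RNA, and values are log2 ratios of mouse over pool, normalized within each array. Levels were thus compared between mice and never between features, and in whole muscle fewer cells of a type cannot be told apart from less RNA per cell. Features were kept where both dyes reached at least 2 times the background on average, which left 19398 features, and groups were compared by limma with Benjamini-Hochberg adjustment over all of them. Differences are cHF+F+ROSI minus cHF+ROSI. No dye was swapped, and every slide carried the diets at fixed places, so place and diet cannot be told apart. The 10 muscle fibre markers of the list used here all passed the filter. So did 7 of 7 endothelial and 7 of 7 adipocyte markers on the array, so passing it does not identify the tissue.

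All 21 class I features passed the filter and were well above background in both channels on all 16 arrays. Detection was weakest in the reference channel. The Cy3 signal over background averaged 2.13 for the only Tap1 feature, 2.42 for the H2-Q10 feature A_51_P230267 and 2.46 for the B2m feature A_52_P105594. It reached 117 for the brightest H2-K1 feature. Ratios of the 3 dim features are drawn towards 0 by the offset that was added before taking logs, so their differences are understated.

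One mouse stood apart in these genes, cHF+F+ROSI replicate 1. It exceeded every other mouse by more than 0.5 on the log2 scale in 15 of the 21 class I features, which belong to 8 of the 10 genes, whereas 0.471% of the 19310 features with a value in every mouse did so. None of the other 15 mice did so in any class I feature. This mouse was singled out after its values had been seen, it is 1 animal, and its excess has no test. The diet comparisons of the members, and the counts of the companion lists, are therefore given with it and without it.

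**Figure D1:**
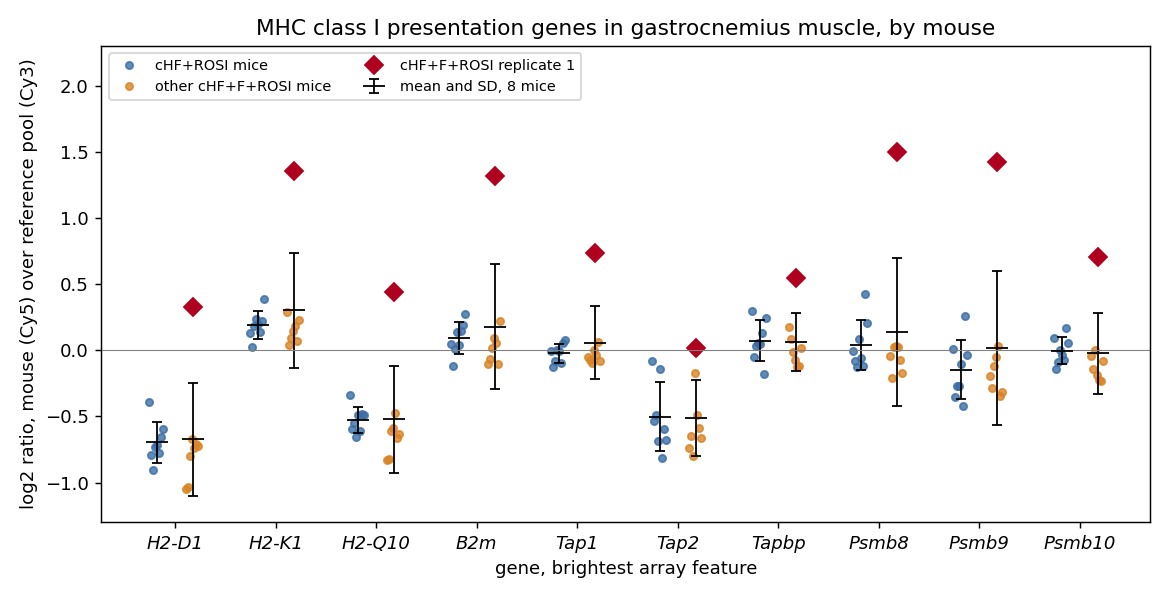
Log2 ratio of mouse over reference pool (y axis) for the brightest feature of each gene (x axis), with 1 point for each of the 16 mice and bars for the mean and SD of 8 mice. cHF+F+ROSI replicate 1 (diamond) lies above the other 15 mice in all 10 genes, while the other mice of both groups overlap. Its own log2 ratios run from 0.016 in Tap2 to 1.50 in Psmb8.

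Promoter windows of the heavy chains and of B2m are shown because members moved together in 1 mouse. They come from RefSeq (GRCm38.p6), which gave a promoter, 250 bases before to 50 after the start site, for 9 of the 10 members. The promoter of Tap2 was not analysed here. Capitals mark matches to GGGANTCC, the core of a site bound by NF-κB, and to GAANNGAAA or GAAANNGAA, the spaced GAA repeats of interferon-responsive elements. Both strands were searched, matches may overlap, and the letters GAANNGAAA were added after the sequences had been seen.
H2-K1, chr17:34000424-34000468, minus strand: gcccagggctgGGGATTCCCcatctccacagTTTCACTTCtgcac
H2-D1, chr17:35262913-35262957, plus strand: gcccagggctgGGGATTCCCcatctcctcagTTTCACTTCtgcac
H2-Q10, chr17:35469903-35469947, plus strand: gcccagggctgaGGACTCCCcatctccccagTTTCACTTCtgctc
B2m, chr2:122147533-122147578, plus strand: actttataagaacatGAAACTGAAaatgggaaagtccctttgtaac

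Over these 45 bases H2-D1 differed from H2-K1 at 1 position, A28T, counted from 1 at the left end with the H2-K1 base first. H2-Q10 differed from H2-K1 at 4 positions (G12A, T16C, A28C and A44T), and the former 2 lie within the capitals GGGATTCCC of H2-K1. GGGANTCC matched on both strands in H2-K1 and H2-D1 and on one strand in H2-Q10. Among the promoters of 27025 genes, 4.82% held GGGANTCC, 8.68% held GAANNGAAA and 9.76% held GAAANNGAA. GGGANTCC and GAANNGAAA were each found in H2-D1, H2-K1 and H2-Q10 only among the members, and GAAANNGAA in B2m only. TTCNNNGAA, the palindrome of interferon-γ activated sites, was found in Psmb8 only and in 9.55% of all promoters. The windows of Tap1 and Psmb9, which run in opposite directions, share 275 bases. A match describes letters and not a bound factor.

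H2-K1 and H2-D1 encode the classical heavy chains of this strain. The brightest H2-K1 feature (A_51_P198434, chr17:33606564-33606623 on mm8) ran from 0.022 to 0.39 in the cHF+ROSI mice (median 0.19). With n-3 LC-PUFA it ran from 0.038 to 1.35 (median 0.17). The highest value was that of cHF+F+ROSI replicate 1, 2.27-fold the geometric mean of the other 15 mice, and the next highest cHF+F+ROSI mouse had 0.29, so apart from 1 mouse the groups overlapped fully. The diet difference was 0.11 (SE 0.14, 95% interval -0.19 to 0.41, limma adjusted p = 0.905), and without that mouse it was -0.040 (-0.16 to 0.076, adjusted p = 0.951). The feature was spotted 10 times on every array, and the SD between its spots had a median of 0.042 over arrays, against an SD between mice within groups of 0.32 with all mice and 0.099 without replicate 1. The other 3 H2-K1 features also had their highest value in that mouse, at 2.07- to 2.24-fold the mean of the others.

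For H2-D1 the ratio was below 0 in every mouse but 1. Its brightest feature (A_52_P313279, chr17:34874240-34874299 on mm8) ran from -0.91 to -0.39 in the cHF+ROSI mice (median -0.73) and from -1.05 to 0.32 with n-3 LC-PUFA (median -0.73). Again cHF+F+ROSI replicate 1 alone lay above the range, 2.11-fold above the mean of the others, and the next cHF+F+ROSI mouse was at -0.67. The diet difference was 0.023 (SE 0.15, 95% interval -0.29 to 0.33, limma adjusted p = 0.987) and became -0.12 (-0.28 to 0.045, adjusted p = 0.848) without it. This feature is listed for transcripts of both H2-D1 and H2-Q2, so signal from these near-identical class I genes cannot be told apart.

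B2m encodes β2-microglobulin, the light chain that every class I molecule needs to reach the cell surface. Its brightest feature (A_51_P129012, chr2:121844106-121844165 on mm8) ran from -0.12 to 0.27 in the cHF+ROSI mice (median 0.090). With n-3 LC-PUFA it ran from -0.11 to 1.32 (median 0.036). The value of 1.32 was that of cHF+F+ROSI replicate 1, 2.40-fold the mean of the others, and the next cHF+F+ROSI mouse was at 0.22. A second feature, spotted 10 times (A_51_P129006), gave 1.35 and 2.52-fold for the same mouse, with a median SD between spots of 0.056. The diet difference of the brightest feature was 0.090 (SE 0.16, 95% interval -0.24 to 0.42, limma adjusted p = 0.939), and -0.073 (-0.21 to 0.062, adjusted p = 0.904) without replicate 1. The dim feature A_52_P105594, matched to no RefSeq gene, was close to the filter limit and reached 1.24-fold in that mouse, a ratio that the offset understates. In the Cy5 channel alone it lay 0.71 above the mean of the other arrays on the log2 scale, against 1.51 for the brightest feature. In limma A_52_P105594 had the smallest unadjusted p of all class I features, 0.234, at an adjusted p of 0.827.

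Psmb8, Psmb9 and Psmb10 encode the catalytic subunits of the immunoproteasome, and Psmb9 and Psmb8 had the largest folds of the members in the mouse that stood apart. Psmb9 (A_51_P369803, chr17:33792517-33792576 on mm8) ran from -0.42 to 0.26 in the cHF+ROSI mice (median -0.19) and from -0.34 to 1.42 with n-3 LC-PUFA (median -0.16). Psmb8 (A_51_P345366, chr17:33811095-33811419) ran from -0.13 to 0.42 (median -0.035) and from -0.21 to 1.50 (median -0.0096). Psmb10 (A_52_P570266, chr8:108824906-108824965) ran from -0.14 to 0.17 (median -0.016) and from -0.23 to 0.71 (median -0.11). In all 3 genes cHF+F+ROSI replicate 1 gave the highest value of the 16 mice, 3.00-fold the mean of the others for Psmb9, 2.84-fold for Psmb8 and 1.70-fold for Psmb10, and the groups otherwise overlapped. Second to it came a cHF+ROSI mouse each time, at 0.42 for Psmb8 and 0.26 for Psmb9. The diet differences were 0.17 for Psmb9 (95% interval -0.25 to 0.59), 0.096 for Psmb8 (-0.30 to 0.49) and -0.022 for Psmb10 (-0.25 to 0.20), with limma adjusted p of 0.891, 0.948 and 0.983. Without that mouse they were -0.032, -0.099 and -0.13, and Psmb10 then had an unadjusted p of 0.0338 and an adjusted p of 0.729.

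Tap1 and Tap2 encode the chains of the peptide transporter, and Tapbp encodes tapasin, which holds it to the empty heavy chain. On mm8 the features of Psmb9, Tap1, Psmb8 and Tap2 follow each other on chromosome 17, with Tap1 at chr17:33804121-33804180 and Tap2 at chr17:33825052-33825639. Tap1 ran from -0.13 to 0.078 in the cHF+ROSI mice (median -0.0058) and from -0.097 to 0.73 with n-3 LC-PUFA (median -0.042). Without replicate 1 its SD within groups was 0.066, lower than that of all but 2.43% of the features, and the offset lowers the SD of so dim a feature. Tap2 ran from -0.81 to -0.081 (median -0.56) and from -0.80 to 0.016 (median -0.62). Tapbp (A_51_P304500, chr17:33539531-33539590) ran from -0.18 to 0.30 (median 0.051) and from -0.12 to 0.55 (median 0.0011). For Tap1 the mouse cHF+F+ROSI replicate 1 lay clear of all others at 1.70-fold their mean, while for Tap2 and Tapbp it was the highest at 1.47- and 1.43-fold but less than 0.5 above the next mouse. The diet differences were 0.080 (SE 0.095) for Tap1, -0.0083 (SE 0.13) for Tap2 and -0.011 (SE 0.090) for Tapbp, with limma adjusted p of 0.891, 0.992 and 0.990. Without replicate 1 they were -0.016, -0.083 and -0.080. The second Tapbp feature, A_52_P684830, showed no excess in that mouse, with -0.16 against a highest value of 0.0018.

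Over the 21 features, 0 passed an adjusted p of 0.05 in limma, as did 0.0155% of all features, and 0 had an unadjusted p of at most 0.05, where 7.46% of all features did. The methods' t-test also called 0 of them. The groups overlapped in all 21. The exact two-sided permutation test of 8 against 8 mice, whose smallest possible p is 0.0001554, gave p from 0.240 to 0.991. The differences lay between -0.13 and 0.17, with a median of 0.048 and 14 of 21 above 0, against a median of -0.0014 over all features. The 95% intervals reached from -0.69 to 0.59, and a p that misses the threshold does not show that the diets act alike on these genes.

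**Figure D2:**
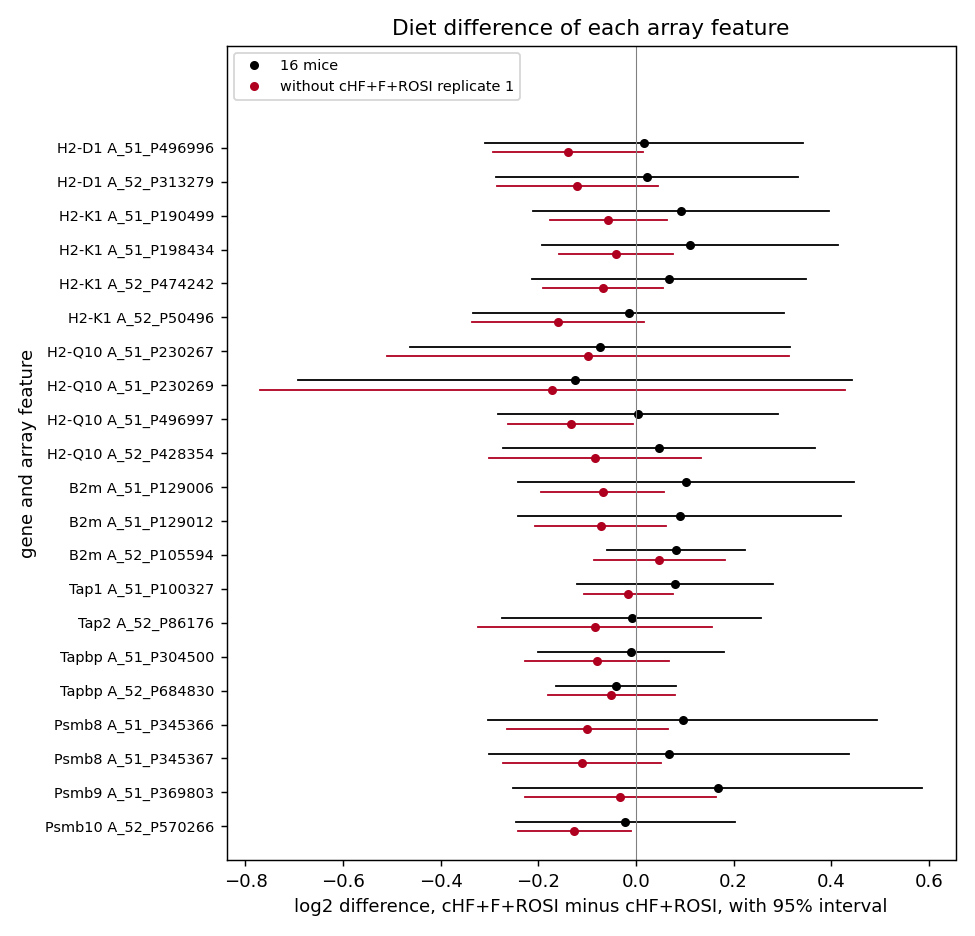
Difference cHF+F+ROSI minus cHF+ROSI on the log2 scale (x axis) with its 95% interval from limma for each of the 21 features (y axis), with all 16 mice in black and without cHF+F+ROSI replicate 1 in red. All black intervals hold 0, and with 1 mouse left out 20 of 21 differences lie below 0.

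Without cHF+F+ROSI replicate 1, 20 of the 21 differences were below 0, with a median of -0.083 against 0.00012 over all features. Of them 2 had an unadjusted p of at most 0.05, where 6.7% of all features did. They were the H2-Q10 feature A_51_P496997 (-0.13, limma p = 0.0415, exact permutation p = 0.0410) and Psmb10 (-0.13, limma p = 0.0338, exact permutation p = 0.0278). The lowest adjusted p was 0.729. The class I features share mice and partly sequence, so 20 of 21 is no count of independent results. The mouse was left out after it was seen to be highest in 18 of these features, so their differences had to fall. The p-values given without it do not allow for that choice. Within slides, each with 2 mice per diet, the median difference over the 10 brightest features was -0.066, -0.0027 and -0.032 on slides 1, 2 and 3. It was 0.37 on slide 4, which held the mouse that stood apart, and -0.12 on that slide without it.

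For most of the brightest features much of the spread also came from 1 animal. The SD within groups of the brightest features lay at a median percentile of 92.5 among all features with all mice and at 43.3 without that mouse. H2-K1 went from percentile 93.2 to 20.4, and Tap1 from 78.6 to 2.43, but Tap2 only from 89.8 to 85.9. The H2-Q10 features A_51_P230267 and A_51_P230269 stayed at percentiles 97.2 and 99.1.

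**Figure D3:**
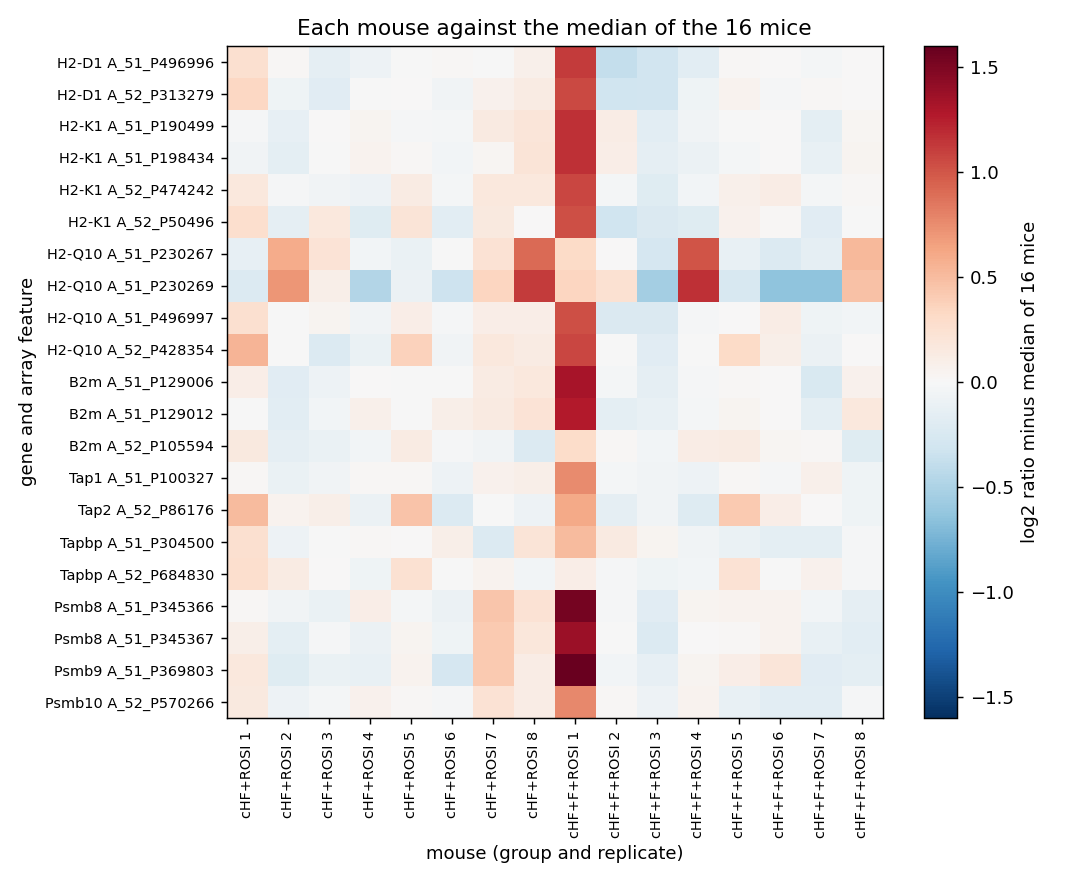
Log2 ratio of each of the 16 mice (columns) minus the median of the 16 mice, for the 21 features (rows), in red above and in blue below the median. The column of cHF+F+ROSI replicate 1 is red in nearly all rows, whereas the H2-Q10 features A_51_P230267 and A_51_P230269 are highest in other mice, up to 1.00 and 1.17 above the median.

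The array of cHF+F+ROSI replicate 1 was not dim. Its median Cy5 signal over background was 3.33, within the 2.33 to 3.64 of the other arrays, and its Cy3 median was 2.02 against 1.78 to 2.00. Its share of spots with an outlier flag was the highest, 0.461% against 0.274% to 0.390%. In the Cy3 channel of the common pool, the class I features of this array differed from the mean of the other arrays by -0.081 to 0.19, while in the Cy5 channel the 15 features in excess differed by 0.85 to 1.80. In the authors' own normalized table, all 10 genes had their highest value in the same cHF+F+ROSI column. Over all features 91 were in excess in this mouse, of which 16.5% were class I members. The other mice had between 1 and 171 such features, none of them a member.

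Genes of the same biology were high in that mouse too, over lists whose choice is described with the processing. Of 15 other class I genes that passed the filter, 8 were in excess by more than 0.5 over every other mouse, among them H2-T23, the non-classical heavy chain Qa-1 (2.24-fold the mean of the others), H2-Q8 (2.91-fold) and H2-Q7 (2.12-fold). The distant class I relatives Fcgrt, Hfe, Mr1 and Cd1d1 were not, at 0.866- to 1.03-fold. Of 28 interferon-induced genes 16 were in excess, led by the GTPases Iigp1 (14.8-fold), Igtp (8.65-fold) and Gbp3 (5.79-fold). The chemokine Cxcl9 was at 3.49-fold. Oasl2 (2.32-fold), Parp14 (2.32-fold) and Bst2 (2.24-fold) were in excess as well. The genes not in excess ran from 1.04-fold for the viral RNA sensor Ddx58 to 2.26-fold for Cxcl10, which was exceeded by another mouse. Among them were Rsad2 at 1.91-fold, Usp18 at 1.69-fold, Oas2 at 1.66-fold, Ifit1 at 1.38-fold and Isg15 at 1.30-fold. All of them but Ddx58 and Cxcl10 were still highest in that mouse, by 0.083 (Ifi35) to 0.43 (Rsad2) over the next mouse.

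Among the regulators, the transcription factors Irf1 (2.33-fold) and Isgf3g, also named Irf9 (1.64-fold), were in excess. The receptors Ifngr1 and Ifngr2 were at 0.950- and 0.951-fold. Of 6 class II genes 5 were in excess, with Cd74, the invariant chain, at 3.14-fold and H2-Ab1 at 3.04-fold. Of 8 standard proteasome and activator genes 0 were in excess by more than 0.5. The standard subunits Psmb5, Psmb6 and Psmb7, whose places the immunoproteasome subunits take, stood at 1.02-, 0.980- and 0.959-fold. The activator subunits Psme1 and Psme2 were at 1.48- and 1.35-fold. Both were highest in that mouse, by 0.45 and 0.30 over the next mouse. Of 11 genes for peptide loading and trimming 0 were in excess by more than 0.5. Arts1 (1.37-fold) and Tapbpl (1.36-fold) were still highest in that mouse. Calr was at 1.12-fold and Pdia3 at 1.18-fold, and Npepps had the lowest value of the list, 0.752-fold.

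**Figure D4:**
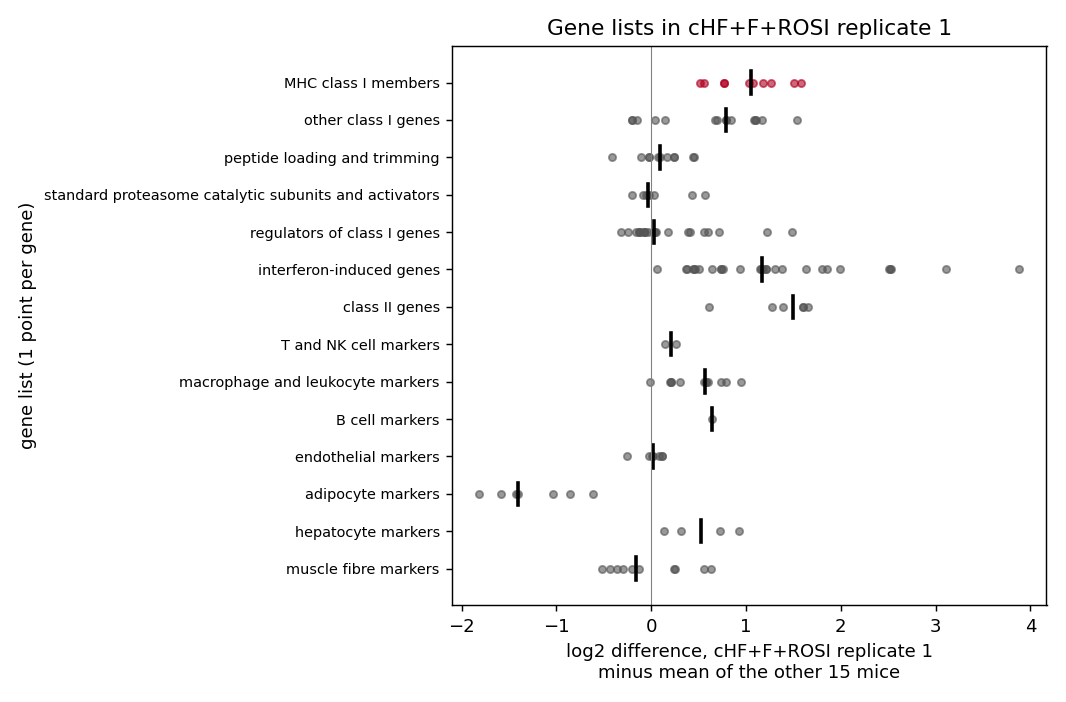
Log2 difference between cHF+F+ROSI replicate 1 and the mean of the other 15 mice (x axis) for the 10 members and the companion genes by list (y axis), with 1 point per gene and a bar at the median. Members, other class I, interferon-induced and class II genes have medians of 1.05, 0.79, 1.17 and 1.50. The list of standard proteasome and activator genes has -0.031 and the adipocyte markers -1.41.

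Some markers of T and NK cells that were too dim for the filter were higher in this mouse. Of the 12 T and NK cell markers only Cd3e, Cd8b1 and Cd4 passed the filter, and Cd3e (1.20-fold) and Cd8b1 (1.11-fold) were within the range of the other mice. Cd3e had 0.38 there against a highest value of 0.41 in another mouse, Cd8b1 had 0.41 against 0.47, and Cd4 had no value. Of the 9 below the filter, 7 were well above background in that mouse, and Cd3d, Cd8a and Gzma were so in no other mouse. Nkg7 was so in 11 other mice, Klrd1 in 6, Cd3g in 4 and Gzmb in 2. Cd8a and Cd3g were only just higher in cHF+F+ROSI replicate 1. Their Cy5 signal over background was 2.34 against 1.79 to 2.14 in the others for Cd8a, and 2.86 against 1.89 to 2.82 for Cd3g. The Cy5 signal over background of Nkg7, a granule protein of cytotoxic cells, was 8.70 there and 1.87 to 2.88 in the others. Cd3d had 3.94 against 1.79 to 2.41, and Gzma had 3.20 against 1.84 to 2.28. Prf1 and Ncr1 were not well above background on any array.

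Ifng, the gene of interferon-γ, was looked at after these values had been seen. It was well above background in cHF+F+ROSI replicate 1 only, with a Cy5 signal over background of 4.24 against 1.46 to 1.87 in the other 15 mice, and its Cy3 signal was below the filter. Ifnb1, Ifna2 and Ifna4 were not well above background on any array, and Ifna1 was in that mouse and in 2 others. Ciita, the activator of class II genes, had 8.54 against 2.12 to 4.38.

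Over the 12 macrophage and leukocyte markers the mean was 0.31 in that mouse. It was -0.33 to 0.097 in the other cHF+F+ROSI mice and -0.44 to 0.43 in the cHF+ROSI mice. This summed level thus lay within their range, though only cHF+ROSI replicate 4 was higher. Against the mean of the other 15 mice the median marker was 0.57 higher. Ptprc, the leukocyte antigen CD45, was the one marker in excess by more than 0.5 over every other mouse (1.93-fold). C1qa (1.67-fold) and C1qb (1.49-fold) were also highest in that mouse, while Cd68 was at 0.988-fold. The adipocyte markers lay lowest in that mouse, with a mean of -1.41 against -1.02 to 0.96 in the others. Igh-6, the one B cell marker kept, was at 0.30 and within the range of the others. The part of infiltrating cells and of adipose tissue in the class I values was not tested.

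Of the 133 genes of the companion lists that passed the filter, 8 (6.02%) had an unadjusted p of at most 0.05 for the diets, where 7.46% of all features did. At that limit, 0 of 15 other class I genes, 0 of 6 class II genes, 1 of 28 interferon-induced genes (Usp18, 0.23 higher in cHF+F+ROSI, adjusted p = 0.599) and 1 of 11 loading genes (the aminopeptidase Lnpep, 0.17 higher, adjusted p = 0.651) differed. The proteasome activator Psme3 was 0.11 higher (adjusted p = 0.665). Of the 21 regulators Jak1 was 0.29 higher (adjusted p = 0.302) and Rela, the p65 subunit of NF-κB, 0.18 lower (difference -0.18, adjusted p = 0.529). Of the 7 endothelial markers Emcn, Cdh5 and Kdr had differences of -0.24, -0.16 and -0.27 (adjusted p of 0.293, 0.459 and 0.630). The others did not go one way, with Pecam1 at -0.16, Tek at -0.063, Tie1 at 0.013 and Vwf at 0.20. None of the companion genes passed the adjusted p in limma, and the T and NK cell, macrophage, B cell, adipocyte, hepatocyte and fibre markers had 0 at the unadjusted p. In lists with none, the genes of smallest p were H2-T10 (0.15) and H2-M3 (0.11) of the other class I genes, H2-Aa (0.17) and H2-DMb1 (0.17) of class II, Cd4 (-0.047) and Cd8b1 (0.022) of the T and NK cell markers, and Cd163 (0.15) and Mrc1 (0.10) of the macrophage markers. They were Cfd (0.48) and Adipoq (0.44) of the adipocyte, Apoh (-0.13) and Alb1 (-0.24) of the hepatocyte and Mylpf (0.17) and Mb (-0.28) of the fibre markers, and Igh-6 (-0.11), each a diet difference on the log2 scale. Without cHF+F+ROSI replicate 1 these counts changed to 15 of 133 genes (11.3%, where 6.7% of all features did), and 7 of the 8 genes were among them. H2-Q1 (-0.13), the class II genes H2-Ab1 (-0.22) and Cd74 (-0.21) and the interferon-induced genes Bst2 (-0.19), Ifitm3 (-0.15) and Rtp4 (-0.20) then lay lower in cHF+F+ROSI at the unadjusted p, and Ifngr1 (0.19) and Mylpf (0.21) higher. By limma 0 of them passed the adjusted p, whose lowest value was 0.263. Leaving out a mouse singled out for its high class I values lowers the cHF+F+ROSI mean of every gene that was high in it. The change in these counts is therefore no independent result. The list medians with all mice were 0.021 for the other class I genes, 0.11 for the interferon-induced genes and 0.030 for the class II genes.

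Whether the members varied together from mouse to mouse was asked with 9 gene pairs, on deviations from the group means over 16 mice. With all mice 8 of the 9 pairs had an adjusted permutation p of at most 0.05, and 3 of these 8 also passed without replicate 1 of cHF+F+ROSI. Psmb8 and Psmb9 gave Pearson's r = 0.97 (permutation p = 1e-05, the smallest that 100000 permutations can give, adjusted p = 4.5e-05) and Spearman's rho = 0.90 (permutation p = 2e-05, adjusted p = 0.00018). Leaving out the 2 mice farthest from the median for Psmb8 gave r = 0.74. Without replicate 1 alone r was 0.81 over 15 mice (permutation p = 0.00033, adjusted p = 0.00297), with 0.81 within each group. Of those 15, cHF+ROSI replicates 7 and 8 were farthest from the median for Psmb8. Leaving them out too gave r = 0.65 over 13 mice, so this pair kept a weaker relation.

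Tap1 and Psmb9, the neighbours with a shared promoter region, gave r = 0.93 (permutation p = 0.00026, adjusted p = 0.000468) and rho = 0.71 (permutation p = 0.00263, adjusted p = 0.00592), and 0.64 without the 2 farthest mice. Without replicate 1 r was 0.54 (permutation p = 0.0407, adjusted p = 0.0611), 0.80 within the cHF+ROSI mice and -0.079 within the other cHF+F+ROSI mice. Psmb8 and Tap1 had r = 0.96 (permutation p = 1e-05, adjusted p = 4.5e-05) and rho = 0.81 (permutation p = 0.00027, adjusted p = 0.00121), 0.75 without the 2 farthest mice, and 0.65 without replicate 1 (permutation p = 0.00742, adjusted p = 0.0223).

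The heavy chains and the light chain differed in this respect. H2-K1 and B2m had r = 0.96 (permutation p = 4e-05, adjusted p = 0.00012) and rho = 0.76 (permutation p = 0.00099, adjusted p = 0.00297), 0.66 without the 2 farthest mice and 0.61 without replicate 1 (permutation p = 0.0147, adjusted p = 0.0331). H2-D1 and B2m had r = 0.90 (permutation p = 0.00079, adjusted p = 0.00118) and rho = 0.68 (permutation p = 0.00483, adjusted p = 0.00869), 0.69 without the 2 farthest mice and 0.44 without replicate 1 (permutation p = 0.101, adjusted p = 0.130). H2-K1 and H2-D1 had r = 0.85 (permutation p = 0.00754, adjusted p = 0.00969) and rho = 0.48 (permutation p = 0.0601, adjusted p = 0.0677), which fell to 0.21 without the 2 farthest mice and to 0.068 without replicate 1 (permutation p = 0.810). With median centring in place of loess, r for this pair was 0.90, with 0.61 without the 2 farthest mice and 0.71 within the cHF+ROSI mice, so its dependence on the 1 mouse changed with the normalization.

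Psmb9 and Psmb10 had r = 0.92 (permutation p = 0.00023, adjusted p = 0.000468) and rho = 0.62 (permutation p = 0.0122, adjusted p = 0.0183), 0.49 without the 2 farthest mice and 0.56 without replicate 1 (permutation p = 0.0289, adjusted p = 0.0521). Tap1 and Tap2 had r = 0.58 (permutation p = 0.0120, adjusted p = 0.0135) and rho = 0.42 (permutation p = 0.105, adjusted p = 0.105), 0.44 without the 2 farthest mice and 0.24 without replicate 1 (permutation p = 0.387). Psmb8 and the standard subunit Psmb5 had r = 0.29 (permutation p = 0.254, adjusted p = 0.254) and rho = 0.54 (permutation p = 0.0334, adjusted p = 0.0430), and 0.69 without replicate 1 (permutation p = 0.00465, adjusted p = 0.0209), in which Psmb8 was high and Psmb5 was not. Over all 45 pairs of members the median r was 0.89 with all mice, 0.34 without replicate 1 and 0.45 within the cHF+ROSI mice.

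The 10 genes whose deviations were most like the mean of the members over 16 mice were H2-T23, EG630499, H2-Q7, TC1629641, NAP027924-1, Gbp2, Oasl2, H2-Eb1, Iigp1 and Igtp, with r from 0.98 to 0.96. Over the other 15 mice only Oasl2 stayed among the 10 most like genes (r = 0.82), and the first was 0610031J06Rik (r = 0.88). Tapbp and Tap2 were the members least like the rest, with r = 0.69 and 0.58 against the mean of the other members over 16 mice and -0.022 and 0.20 over 15.

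H2-Q10 encodes a class I molecule that is secreted and is known mainly from the liver, and its 4 features fell into 2 kinds. A_51_P496997 and A_52_P428354 behaved as the other heavy chains, at 2.04- and 2.00-fold in cHF+F+ROSI replicate 1, and correlated with each other at r = 0.89 over 16 mice. The accessions of A_51_P496997 also name H2-D1, H2-Q1 and H2-Q6. A_51_P230267 and A_51_P230269 (chr17:35081576-35081635 and chr17:35082473-35082532 on mm8) correlated with each other at 0.95 but with the former 2 at -0.0048 to 0.16. A_51_P230269 ran from -0.27 to 1.32 in the cHF+ROSI mice (median 0.21) and from -0.44 to 1.38 with n-3 LC-PUFA (median 0.20). It was highest in cHF+F+ROSI replicate 4, at 1.38, and in cHF+ROSI replicates 8 and 2, at 1.32 and 0.91, and the groups overlapped. cHF+F+ROSI replicate 1 had 0.55. The diet difference was -0.13 (SE 0.27, 95% interval -0.69 to 0.44, limma adjusted p = 0.955), and -0.17 (-0.77 to 0.43, adjusted p = 0.965) without replicate 1. For A_51_P496997 it was 0.0041 (SE 0.14, 95% interval -0.28 to 0.29, limma adjusted p = 0.997) with all mice.

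The mean of the 4 hepatocyte markers Alb1, Apoa1, Apoh and Fgb exceeded 0.5 in 3 mice, which were the same mice, at 1.12, 1.04 and 0.68. This relation was looked at after the values had been seen, for 6 features. The mean of the markers correlated with A_51_P230269 at r = 0.83 (permutation p = 7e-05, adjusted p = 0.00042) and rho = 0.80 (permutation p = 0.00042, adjusted p = 0.00252), 0.81 without the 2 farthest mice, 0.87 within the cHF+ROSI mice and 0.83 within the cHF+F+ROSI mice. For A_51_P230267 it was r = 0.73 (permutation p = 0.00131, adjusted p = 0.00393) and rho = 0.63 (permutation p = 0.0102, adjusted p = 0.0306), with 0.69 without the 2 farthest mice. For A_51_P496997, A_52_P428354, H2-K1 and H2-D1 r was 0.21 to 0.30, with adjusted permutation p of 0.442 each. The source of the hepatocyte transcripts in muscle RNA was not tested.

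**Figure D5:**
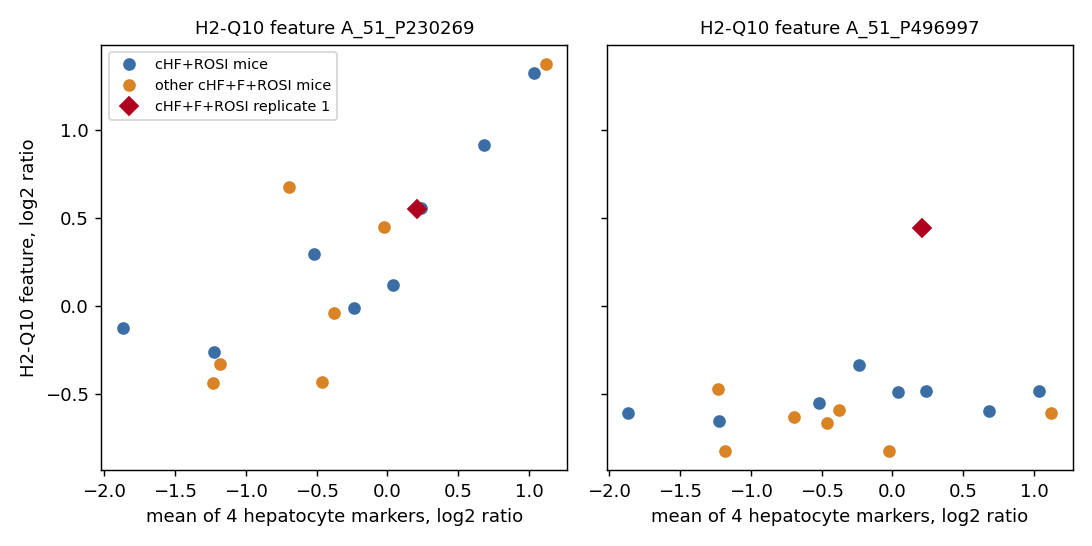
Log2 ratio of an H2-Q10 feature (y axis) against the mean log2 ratio of 4 hepatocyte markers (x axis), with 1 point for each of the 16 mice. A_51_P230269 (left) rises with the markers (r = 0.83) and cHF+F+ROSI replicate 1 (diamond) lies among the others, whereas A_51_P496997 (right) is high in that mouse alone (r = 0.24).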

How the data were processed

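The authors hybridised Cy5-labelled muscle RNA of 16 mice (8 per diet) with a Cy3 reference pool and deposited spot intensities from Feature Extraction 10.5.1.1, per the file headers, with a table of log2 values, normalized by the authors, whose cHF+F+ROSI columns could be assigned to the group only. Median signals were corrected by normexp (offset 50). Control spots, outlier-flagged spots and those under 2 times background in either channel (mean over arrays) were dropped, ratios were normalized by loess and spots of a feature were averaged. Groups were compared by limma 3.58.1 in R 4.3.3. A gene's brightest feature stood for it. The steps were tried on these same arrays, with mice regrouped at random and the Cy5 signal of randomly drawn brighter features raised 2-fold. Dim features were not covered.

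The members and lists were chosen with earlier results of these data known. Named genes were all members, companion genes with an unadjusted p of at most 0.05 (otherwise those with the smallest), the pairs, and the 10 genes most like the members. Other companion genes were named after their values were seen, and 1 regulator is not reported here. A comparison of protein sequences was planned and not run. Coordinates are as in the files (mm8) or from RefSeq (GRCm38.p6), and were not converted. The labels do not name litters, and p-values measure the spread between these mice. The number of arrays limits the precision.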

Additional observations from a re-analysis of the deposited data

Results flagged for a closer look

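Over 70 sets of 8 values (21 features and 14 list means in each group), 20 held a value far from the other 7 by Dixon's ratio, where chance gives about 3.5, and 19 of them were of cHF+F+ROSI replicate 1. Its values were 0.44 and 0.32 for H2-D1 (A_51_P496996 and A_52_P313279), 1.41, 1.35, 0.73 and 0.55 for H2-K1 (A_51_P190499, A_51_P198434, A_52_P474242 and A_52_P50496), 0.44 and 0.42 for H2-Q10 (A_51_P496997 and A_52_P428354) and 1.35 and 1.32 for B2m (A_51_P129006 and A_51_P129012). They were 0.73 for Tap1, 0.55 for Tapbp (A_51_P304500), 1.50 and 1.27 for Psmb8 (A_51_P345366 and A_51_P345367), 1.42 for Psmb9 and 0.71 for Psmb10. The means of 3 lists were far from the other 7 mice as well, at 0.47 for the other class I genes, 1.34 for the interferon-induced genes and 1.16 for the class II genes. These flags share 1 mouse and are not independent. The last was the mean of the fibre markers in cHF+F+ROSI replicate 2, at -0.53.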

How the results depend on the processing

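Under 13 alternatives for background, normalization, channel, filters, blocks, weights, test and the authors' table, 0 class I features passed an adjusted or an unadjusted p of 0.05. Their median difference was 0.033 to 0.092, and the excess of cHF+F+ROSI replicate 1 was 0.83 to 1.12 over 8 settings. Single genes moved more, with H2-D1 at 0.34, H2-Q10 at 0.24 and Tapbp at -0.23 under scale normalization and Tap1 at 0.31 under median centring. The replicate numbers did not pair the mice (r of same-numbered deviations -0.34 to 0.73, over 0.1 in 4 of 8), and with the replicate block 0 features were called over the array and 0 members, whose lowest adjusted p was 0.715. Over the array, where 3 features were called, there were 14 without background correction, 20 with processed signals, 1 with median centring, 0 with scale normalization, 8 with Cy5 alone, 14 with array weights and 10 in the authors' table. Of the companion genes, 8 at an unadjusted p, there were 13 without background correction, 5 with median centring and 4 with scale normalization. Of the 9 gene pairs 8 passed, 5 without the 2 farthest mice and 4 without cHF+F+ROSI replicate 1, of which 3 were among the 8 and the other was Psmb8 with Psmb5. With median centring 7 passed, and Psmb8 with Tap1 (r = 0.47) and Psmb8 with Psmb5 (r = 0.33) did not.

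Some differences changed sign. Tap2 became 0.031 without background correction, 0.033 with processed signals, 0.021 with median centring, 0.048 with scale normalization, 0.033 with Cy5 alone, 0.013 with weights and 0.044 in the authors' table. Psmb10 became 0.0037 with processed signals, 0.0050 with Cy5 alone and 0.048 in the authors' table, and Tapbp 0.057 and 0.055 in the latter 2. With median centring H2-D1 was -0.029 and H2-Q10 -0.047. H2-Q10 was also -0.00016 without a filter and -0.0017 with weights. H2-K1 was -0.039 with scale normalization, and Psmb8 -0.012 with Cy5 alone. The cause was not tested.

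Leaving out each mouse in turn gave 0 to 0 members at an adjusted p, 0 to 2 at an unadjusted p, a median difference of -0.083 to 0.095, 3 to 5 features over the array, and 4 (without cHF+F+ROSI replicate 8) to 15 (without cHF+F+ROSI replicate 1) companion genes. The differences ran from -0.12 to 0.076 for H2-D1, -0.040 to 0.15 for H2-K1, -0.13 to 0.047 for H2-Q10, -0.073 to 0.13 for B2m, -0.016 to 0.10 for Tap1, -0.083 to 0.052 for Tap2, -0.080 to 0.022 for Tapbp, -0.099 to 0.15 for Psmb8, -0.032 to 0.23 for Psmb9 and -0.13 to 0.0075 for Psmb10. Each lowest value was that without cHF+F+ROSI replicate 1. Weak Cy3 signal limits the ratios of dim features such as that of Tap1.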

Other observations

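Other genes also stood out in cHF+F+ROSI replicate 1, named here from the features with the largest excess over every other mouse. Cd274, the inhibitory ligand PD-L1, was at 3.47-fold the mean of the other 15 mice, the T cell chemoattractants Ccl5 and Ccl8 at 3.10- and 3.07-fold, the transcription factor Batf2 at 3.36-fold and the nucleic acid sensor Zbp1 at 3.37-fold. These are values of 1 animal, with no test.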
